A study of Mus musculus with 2 samples.

Results

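Secondary (specific) and tertiary (gelatinase) granules are the stores that neutrophil precursors fill after their primary granules, and 7 genes for such stored or secreted proteins, Camp, Ngp, Ltf, Lcn2, Mmp8, Mmp9 and Chil3, were followed cell by cell in mouse MLL-AF9 acute myeloid leukemia. The genes were chosen by symbol and not by a cut on a measured value, though with earlier results of these data known. They are 7 of the 27998 genes in the files. All 7 were found, 1 row each, and all 7 were detected in both libraries. Their UMIs (unique molecular identifiers, which tag single captured transcripts) were counted in cells with 500 or more detected genes, which the study kept, and in cells under 500 genes, which it left out.

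The leukemias came from bone marrow of Kat2a Flox/Flox mice, with Mx1-Cre -/- donors giving Kat2a WT and Mx1-Cre+/- donors giving Kat2a KO leukemia. Both kinds of donor received pIpC, which drives the interferon-inducible Mx1 promoter, and marrow was taken 4 to 6 weeks afterwards, depleted of lineage-positive cells, transduced with the MLL-AF9 fusion oncogene by retrovirus and grafted into irradiated recipients, so that WT and KO leukemias share the floxed alleles, the pIpC and the oncogene. Terminal marrow of 5 WT and 4 KO leukemias was pooled by genotype and sorted for live YFP+ cells, the reporter of the oncogene, and each pool gave 1 10x Genomics 3′ library. The single leukemias in a pool carry no label, so there is no replicate, no test between genotypes was possible, and every interval is a 95% interval for counting error only.

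Neutrophil precursors make their granule proteins in waves as they mature, primary granule proteins in promyelocytes, specific granule proteins in myelocytes and metamyelocytes, and gelatinase granule proteins after them. The order is set largely by the timing of transcription, and a protein goes to the granule being formed when it is made. Cebpe, a C/EBP factor, is known as a main activator of specific granule genes, and MLL-AF9 leukemias of the mouse keep a variable share of cells that mature along the granulocyte and monocyte lines.

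By role, Camp (cathelicidin antimicrobial peptide) and Ngp (neutrophilic granule protein, related to the cathelicidins) open the list. Ltf (lactotransferrin) and Lcn2 (lipocalin 2) withhold iron from microbes, Mmp8 (neutrophil collagenase) and Mmp9 (gelatinase B) are matrix metalloproteinases, and Chil3 (chitinase-like 3, also called Ym1) is a secreted lectin of neutrophil precursors and of some macrophages. Positions are those of GENCODE M21 on GRCm38. Camp (chromosome 9, 109847379 to 109849617, minus strand, 4 exons), Ngp (chromosome 9, 110419747 to 110423012, plus strand, 4 exons) and Ltf (chromosome 9, 111019271 to 111042767, plus strand, 17 exons) lie within a stretch of chromosome 9, with 570.1 kb and 8 protein-coding genes between Camp and Ngp, and 596.3 kb and 20 protein-coding genes between Ngp and Ltf. Mmp8 (chromosome 9, 7558456 to 7568485, plus strand, 10 exons) lies far from them on the same chromosome. Lcn2 (chromosome 2, 32384633 to 32388252, minus strand, 6 exons), Mmp9 (chromosome 2, 164940780 to 164955850, plus strand, 13 exons) and Chil3 (chromosome 3, 106147554 to 106167564, minus strand, 11 exons) complete the list.

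For 6 of the 7 genes a RefSeq promoter entry was at hand, and the 250 bases before the RefSeq start were searched on both strands for a C/EBP-type motif, TTGCNNAA, and a PU.1-type motif, GAGGAA, which do not overlap each other in these stretches. Of 32851 mouse promoters of that length, 9.56% held the first, 23.3% the second and 2.07% both. Ltf, Lcn2 and Mmp8 each held 1 of both, Ngp held 2 C/EBP-type matches and no PU.1-type match, and Camp and Chil3 held neither. A match is a description of letters, not of binding. Shown are the stretches of Ltf, Mmp8 and Chil3. By mean place along the granulocyte axis described further on, Ltf lay latest of the 7 and Chil3 earliest. The UMIs of Mmp8 lay in WT partly in other cells. Capitals mark the matches on either strand, and all are written in the 5′ to 3′ direction of the gene, on GRCm38.p6.
Ltf, chr9:111019042-111019291, plus strand: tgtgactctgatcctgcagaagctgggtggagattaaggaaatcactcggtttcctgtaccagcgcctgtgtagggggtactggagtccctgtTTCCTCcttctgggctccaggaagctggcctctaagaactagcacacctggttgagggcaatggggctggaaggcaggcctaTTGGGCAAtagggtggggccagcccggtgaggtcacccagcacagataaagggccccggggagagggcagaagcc
Mmp8, chr9:7558179-7558428, plus strand: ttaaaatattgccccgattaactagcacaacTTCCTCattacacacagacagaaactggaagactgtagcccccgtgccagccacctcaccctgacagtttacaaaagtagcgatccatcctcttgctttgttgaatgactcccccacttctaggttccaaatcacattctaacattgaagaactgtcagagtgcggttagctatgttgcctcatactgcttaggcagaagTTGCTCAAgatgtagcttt
Chil3, chr3:106167565-106167814, minus strand: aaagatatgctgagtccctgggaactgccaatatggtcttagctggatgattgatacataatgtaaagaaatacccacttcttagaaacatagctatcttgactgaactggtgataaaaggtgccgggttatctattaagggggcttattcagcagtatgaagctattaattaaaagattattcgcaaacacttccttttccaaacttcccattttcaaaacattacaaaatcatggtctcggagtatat
In Ltf the C/EBP-type match began 75 bases and the PU.1-type match 157 bases before the start, and in Mmp8 they began 19 and 219 bases before it. The last 21 bases of the Ltf stretch lie inside the GENCODE gene, and the RefSeq start of Mmp8 lies before the GENCODE start. Of the stretches not shown, all 250 bases of Lcn2, 161 of Camp and 61 of Ngp lie inside the GENCODE gene.

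The library labelled WT held 4069 cells and the library labelled KO 4240, of which 3866 and 3545 had 500 or more genes, with a median of 2588 and 1884 UMIs. Cells under 500 genes numbered 203 (4.99%) and 695 (16.4%), with a median of 1063 and 907 UMIs, and 28 barcodes occurred in both libraries. Kat2a itself ran against the labels, at 12.2 counts per 1000000 UMIs (CPM) under the WT label and 95.8 under the KO label. A 3′ assay counts transcripts outside the deleted part of the gene, so this checks nothing, but the libraries are named by their labels throughout. Other cell types were rare and uneven between the libraries. The erythroid list summed to 279 CPM in kept WT cells and 584 in kept KO cells, the megakaryocyte list to 22.6 and 154 CPM, and their part in the results was not tested.

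Together the 7 genes took 6.87% of the UMIs of kept cells labelled WT and 6.35% of those labelled KO. Single cells went much higher, up to 33.5% and 45% of a cell's UMIs over all cells of each library. Since 3′ UMIs count transcripts and not fragments, these levels do not scale with gene length.

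Camp stood at 14671 CPM (14602 to 14741) in kept cells labelled WT and at 13998 CPM (13915 to 14080) in those labelled KO. Most cells were at the bottom of this range. The median was 2 UMIs per cell in both libraries, while 18.3% of WT and 10.9% of KO cells held 100 or more, and the highest held 470 and 545. Ngp stood at 26642 CPM in WT and 31445 CPM in KO, with medians of 8 and 12 UMIs per cell and maxima of 759 and 846. Both antimicrobial genes were therefore split between many cells with a few UMIs and a smaller set with very many.

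A UMI of these genes in a cell does not by itself mean that the cell made it, since free RNA enters droplets. Ngp was detected in 91% of kept WT cells and 95% of kept KO cells. It was also detected in 79.7% of WT cells (median depth 2519 UMIs) and 88.7% of KO cells (median 1753) that held under 10 Camp UMIs and 3 or more different monocyte or macrophage list genes, at 1093 and 1887 CPM. Camp was detected in 53.1% and 52.0% of these same cells. Shares of cells with a UMI of Camp or Ngp are therefore not read as shares of expressing cells, and levels are read instead.

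Ltf was rare, at 288 CPM (278 to 298) in WT and 324 CPM (311 to 337) in KO, in 14.9% and 17.1% of kept cells. It was concentrated, since the 10% of cells richest in it held 94.4% and 90.2% of its UMIs. Lcn2 was more widespread, at 3341 CPM (3308 to 3374) in WT and 1867 CPM (1837 to 1897) in KO, in 78.4% and 63.5% of cells, with medians of 4 and 2 UMIs. In the low-Camp marker cells, Ltf was detected in 2.98% of WT and 5.32% of KO cells and Lcn2 in 55.4% and 24.5%. The iron-binding pair thus differed in spread within each library and in direction between the libraries.

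Mmp8 stood at 76.5 CPM (71.6 to 81.7) in WT and 34.3 CPM (30.4 to 38.7) in KO, in 9.60% and 3.58% of cells. Mmp9 stood at 102 CPM (96.2 to 108) in WT and 42.9 CPM (38.5 to 47.7) in KO, in 16.6% and 6.12% of cells. In both proteases the KO level was under that of WT beyond counting error. For Mmp8 in KO it rested on 272 UMIs, of which the 10 richest cells held 31.6%, against 12.0% in WT. Chil3 was the broadest of the 7, at 23610 CPM (23522 to 23698) in WT and 15764 CPM (15676 to 15851) in KO, with medians of 54 and 25 UMIs per cell. Its near-identical neighbour in sequence, Chil4, could share reads with it, and stood at 7.37 and 6.31 CPM.

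At a common depth of 1000 UMIs per cell, reached by drawing UMIs at random and leaving out 66 WT and 194 KO cells that were shallower, the shares of cells with a UMI kept these differences. Lcn2 was found in 63.2% of WT and 54.7% of KO cells, Mmp8 in 6.58% and 2.36%, Mmp9 in 10.4% and 4.15%, and Chil3 in 89.2% and 79.4%. Ngp went the other way, at 75.4% and 88%, and Camp (58.9% and 62.6%) and Ltf (10.9% and 13%) were slightly higher in KO. Unthinned, Camp had been detected in 75% of WT and 72% of KO cells, so its order between the libraries turned with depth.

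As a ratio of levels in kept cells, KO over WT, 3 of the 7 genes were lower by 1.5-fold or more in the library labelled KO and 0 were higher. Over all 9307 genes with enough UMIs, 11.8% were lower and 6.79% higher by that much. The median log2 ratio of the 7 was -0.58, against -0.01 over all genes. The 3 genes were Mmp9 at a log2 ratio of -1.25 (-1.42 to -1.07), Mmp8 at -1.16 (-1.36 to -0.96) and Lcn2 at -0.84 (-0.87 to -0.81). Chil3, at -0.58 (-0.59 to -0.57), fell just short of the 1.5-fold line. Camp was near even at -0.07 (-0.08 to -0.06), Ngp was higher at 0.24 (0.23 to 0.25) and Ltf at 0.17 (0.09 to 0.24). For the proteases the call ended in some settings. Mmp8 was at -0.27 over every deposited cell and -0.58 in cells with 1000 or more genes, and Mmp9 at -0.48 in the latter and -0.34 as the mean within the axis bins described below. Lcn2 stayed past the line in all 10 alternatives. The Ltf value turned with the weighting of cells, to -0.11 as a mean over cells of counts scaled to 10000, to -0.05 at 1000 UMIs per cell and to -0.47 in 2766 cells per library matched on total UMIs. In pooled libraries, fewer cells that express a gene and less RNA per cell cannot be told apart from a summed level alone.

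The primary granule genes, made in the wave before, did not share these differences. Of their list of 6, 0 were 1.5-fold higher and 0 lower in KO, and their median log2 ratio was -0.00. Elane stood at 8056 CPM in WT and 7386 in KO, and Mpo at 1199 and 1303. Of 19 other specific and gelatinase granule genes with a ratio, some on few UMIs, 0 were higher and 8 lower by 1.5-fold, with a median of -0.22. None of the 6 most abundant differed by 1.5-fold. Slpi, a protease inhibitor, stood at 4969 CPM in WT and 5009 in KO, Hp, haptoglobin, at 3639 and 2788, Cyba, an NADPH oxidase subunit, at 3119 and 2678, and Pglyrp1, a peptidoglycan recognition protein, at 2413 and 2492. Fcnb, ficolin B, stood at 845 in WT and 1252 in KO, just under 1.5-fold higher. Of 7 myeloid transcription factors, 0 differed by 1.5-fold. Cebpe stood at 529 CPM in WT and 506 in KO, and Spi1, which encodes PU.1, at 698 and 734.

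To see when along maturation each gene appears, kept cells were placed on a granulocyte axis built without the 7 genes, the log2 ratio of UMIs of 14 late granulocyte genes to those of 6 primary granule genes, and cut into 10 bins of equal cell number over both libraries. Of 7411 kept cells, 6864 held enough UMIs of these genes to be placed, 3656 in WT and 3208 in KO, and 954 of them lay within 0.1 of a bin edge. The late bins were filled unevenly, bin 10 with 530 WT and 158 KO cells, and bin 1 with 403 and 284. The axis is a ratio of 2 gene lists and not a time.

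**Figure D1:**
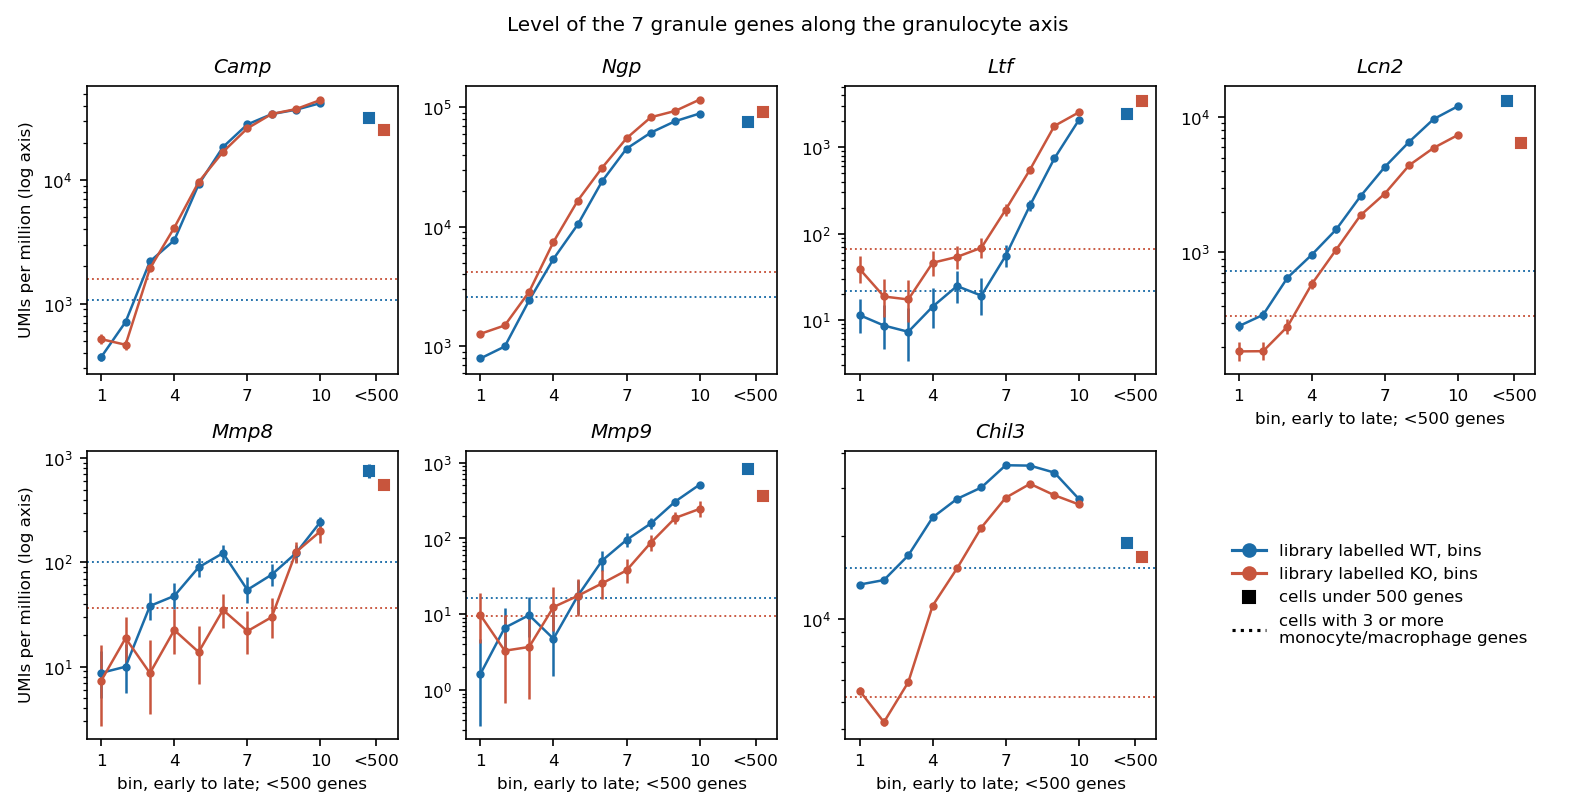
Level of each gene (CPM, log axis) in the 10 bins of the granulocyte axis, from early to late, in the library labelled WT (blue) and KO (red), with 95% counting intervals; squares give the cells under 500 genes and dotted lines the cells with 3 or more monocyte or macrophage genes. Camp and Ngp climb through bins 3 to 8, Ltf stays low up to bin 6 and climbs from bin 7, Chil3 is high from the start in WT, and Mmp8 in WT has a separate hump around bin 6.

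Chil3 came first. In WT it was already at 13343 CPM in bin 1, was highest in bin 7 at 36134 and fell to 27301 in bin 10. In KO it started lower, at 5505 in bin 1, was highest in bin 8 at 30940 and stood at 26063 in bin 10. Its centroid, the mean bin number weighted by level, was 6.28 in WT and 7.01 in KO, the lowest of the 7 in both libraries. By centroid Chil3 thus had the earliest place of the 7. In bin 2 it stood at 13856 CPM in WT and 4231 in KO. In bins 1 and 2 it was thus near its level in the low-Camp monocyte and macrophage marker cells (14826 CPM in WT, 4596 in KO). Whether the cells of these bins made it was not tested.

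Camp and Ngp followed together. Camp went from 370 CPM in bin 1 to 41805 in bin 10 in WT and from 517 to 44345 in KO, and first reached 50% of its highest level in bin 7 in both. Ngp went from 788 to 88879 in WT and from 1267 to 116234 in KO, with 50% reached in bins 7 and 8. Their centroids were 7.98 and 8.27 in WT, and 8.03 and 8.24 in KO. Lcn2 ran beside them, from 285 to 12015 CPM in WT and from 186 to 7363 in KO, with centroids of 8.22 and 8.20 and 50% reached in bin 8 in both. In WT Ngp and Lcn2 changed places, at 8.06 each, when S100a8 and S100a9 were left off the axis, while in KO Lcn2 stayed slightly ahead, at 7.99 against 8.01.

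Mmp9 came later, with 50% of its highest level reached in bin 9 in both libraries and centroids of 8.83 in WT and 8.60 in KO. Its level went from 51.2 CPM in bin 6 to 513 in bin 10 in WT, and from 25.6 to 245 in KO. Ltf came last. It stood at 55.6 CPM in bin 7, 213 in bin 8, 745 in bin 9 and 2061 in bin 10 in WT, and at 190, 553, 1770 and 2537 in KO. Its centroids of 9.42 and 9.08 were the highest of the 7 in both libraries and under each of 3 alternative axes, and it reached 50% of its highest level in bin 10 in WT and in bin 9 in KO. In bin 7, where Camp had passed 50% of its highest level in both libraries, Ltf had not yet reached 10% of its own.

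Mmp8 did not keep 1 place. In WT it showed an early hump, with 123 CPM in bin 6 and 54.5 in bin 7, before it went up to 245 in bin 10, and its centroid was 7.44. In KO it stayed at 34.9 CPM or less up to bin 8 and reached 126 and 199 in bins 9 and 10, with a centroid of 8.20. Without the cells that held 3 or more different monocyte or macrophage genes, its centroid was 8.72 in WT and 8.49 in KO, the last but one of the 7, next to Ltf. The difference in centroid between the 2 proteases and the mean of Camp, Ngp and Ltf turned accordingly, from -0.42 to 0.58 bins in WT and from -0.05 to 0.37 in KO.

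Inside a bin the libraries can be compared at a like place on the axis. In the 4 late bins, 7 to 10, where Camp, Ngp, Ltf, Lcn2 and Mmp9 all stood above their level in the low-Camp monocyte and macrophage marker cells, the pooled picture split by gene.

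Ngp was higher in KO in 10 of 10 bins, with a mean log2 ratio of 0.44, and of 0.35 over bins 7 to 10 (range 0.29 to 0.43). In bin 9, for example, it stood at 76713 CPM in WT and 93482 in KO. In bins 1 and 2 Ngp lay under its level in the low-Camp monocyte and macrophage marker cells (1093 CPM in WT, 1887 in KO). Its ratio in those bins is not read further. Ltf was higher in KO in 10 of 10 bins too. The log2 ratio was 1.77 (1.31 to 2.26) in bin 7, 1.38 (1.12 to 1.63) in bin 8, 1.25 (1.11 to 1.39) in bin 9 and 0.30 (0.18 to 0.42) in bin 10. In bins 1 to 6 Ltf stood between 7.31 and 68.7 CPM, near its level in the low-Camp monocyte and macrophage marker cells (10.0 CPM in WT, 32.8 in KO), and its ratio there is not read further. Within each late bin Ltf was thus higher in KO beyond counting error although the pooled ratio was near even, and fewer KO than WT cells lay in bin 10.

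Lcn2 was lower in KO in 10 of 10 bins, by a mean of -0.70, and by between -0.71 and -0.57 in bins 7 to 10. In bins 1 and 2 Lcn2 lay under its level in the low-Camp marker cells (572 CPM in WT, 229 in KO). Mmp9 was lower in bins 6 to 10, with log2 ratios from -1.33 to -0.72, and in bins 1 to 5, where it rested on 3 to 17 UMIs, it had no stable direction. Camp was even, at a mean of -0.00 over bins 7 to 10 (-0.11 to 0.09). So Camp, Ngp and Lcn2, which rose over the same bins, differed from one another in their ratio between the libraries at every late step.

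Chil3 was lower in KO in 10 of 10 bins, and the gap was smaller in bin 10 than in bin 5. Its log2 ratio was -1.28 in bin 1, -1.71 in bin 2, -0.84 in bin 5, -0.39 in bin 7 and -0.07 in bin 10. In bins 1 and 2 Chil3 lay near its level in the low-Camp marker cells (14826 CPM in WT, 4596 in KO), and its ratio there is not read further. Mmp8 was lower in 8 of 10 bins, in 6 of them beyond counting error. Its intervals included 0 in bins 1 and 2, and in bins 9 and 10 (0.03, -0.42 to 0.47, and -0.30, -0.73 to 0.11). Up to bin 8 Mmp8 lay under its level in the low-Camp marker cells (102 CPM in WT, 35.1 in KO), except in bin 6 of WT. The bins were not equal in every respect, since within bin 10 the late granulocyte list itself summed to 129658 CPM in WT and 99385 in KO, and WT cells were deeper in every bin.

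**Figure D2:**
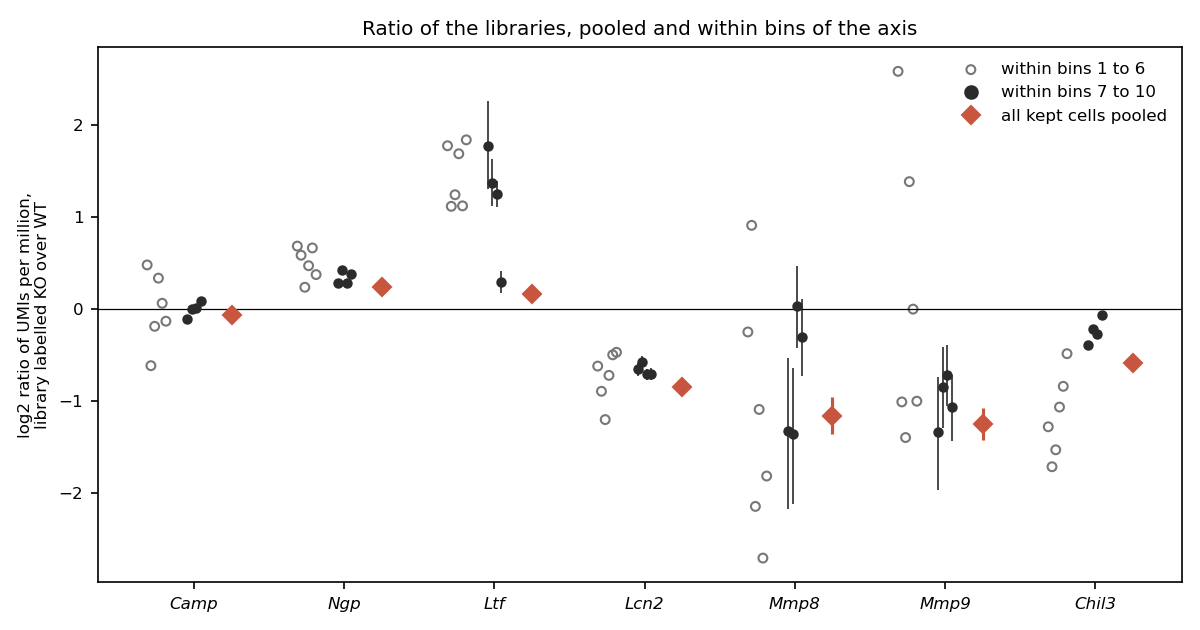
Log2 ratio of CPM for each gene, KO library over WT library: within bins 1 to 6 (open circles), within bins 7 to 10 (black, in bin order, with 95% counting intervals) and over all kept cells (red diamonds). Ltf is above 0 in every late bin while its pooled value is 0.17, Lcn2 and Mmp9 are below 0 in every late bin, and Chil3 approaches 0 towards bin 10.

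Across 5 other ways of choosing or placing the cells, the mean over bins 7 to 10 lay between 0.32 and 0.38 for Ngp, 0.82 and 1.32 for Ltf, -0.75 and -0.65 for Lcn2, and -1.28 and -0.89 for Mmp9, with the same sign in each of the 4 bins. For Mmp8 it lay between -1.39 and -0.65, and 1 to 2 bins had the other sign in 2 of those settings.

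The balance of the antimicrobial pair differed as well. Camp made up 32% of the UMIs of Camp and Ngp together in bin 10 of WT (31.8% to 32.2%) and 27.6% in KO (27.2% to 28%). The share was lower in KO in 10 of 10 bins, and in cells under 500 genes it was 29.6% in WT and 21.6% in KO.

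Part of the Mmp8 UMIs, and a smaller part of the Chil3 UMIs, lay in low-Camp cells with monocyte or macrophage list genes. In WT, 1308 kept cells held under 10 Camp UMIs and 3 or more different monocyte or macrophage list genes, and 34.2% of all UMIs. They held 45.4% (42.1% to 48.7%) of the Mmp8 UMIs, against 1.19% for Ltf and 3.70% for Mmp9, while Camp was kept low there by the choice of cells. Mmp8 stood at 102 CPM there and was detected in 14.8% of the cells (12.9% to 16.9%), more than the 7.39% (6.12% to 8.84%) in the 1488 Camp-rich cells without these markers, which stood at a like median depth of 2552 UMIs. Mmp8 and Ltf had 405 and 40 UMIs in the monocyte and macrophage marker cells and 312 and 3089 in the Camp-rich cells. The part of free RNA in these values was not tested.

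By level and share of UMIs, the library labelled KO did not show this enrichment. Its 958 cells of that kind held 29% of the Mmp8 UMIs (23.7% to 34.8%) in 28.5% of all UMIs, at 35.1 CPM against 45.7 in its Camp-rich cells without the markers. By detection the direction was that of WT, with overlapping intervals. Mmp8 was found in 4.80% (3.54% to 6.35%) of the former and 3.53% (2.60% to 4.67%) of the latter, at median depths of 1753 and 2021 UMIs. Chil3 stood at 14826 CPM in these cells in WT and at 4596 in KO. They held 21.5% and 8.30% of its UMIs, less than their 34.2% and 28.5% of all UMIs. Lcn2 in them stood at 572 and 229 CPM. These cells are named by the marker genes they hold, and doublets among them were not told apart.

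**Figure D3:**
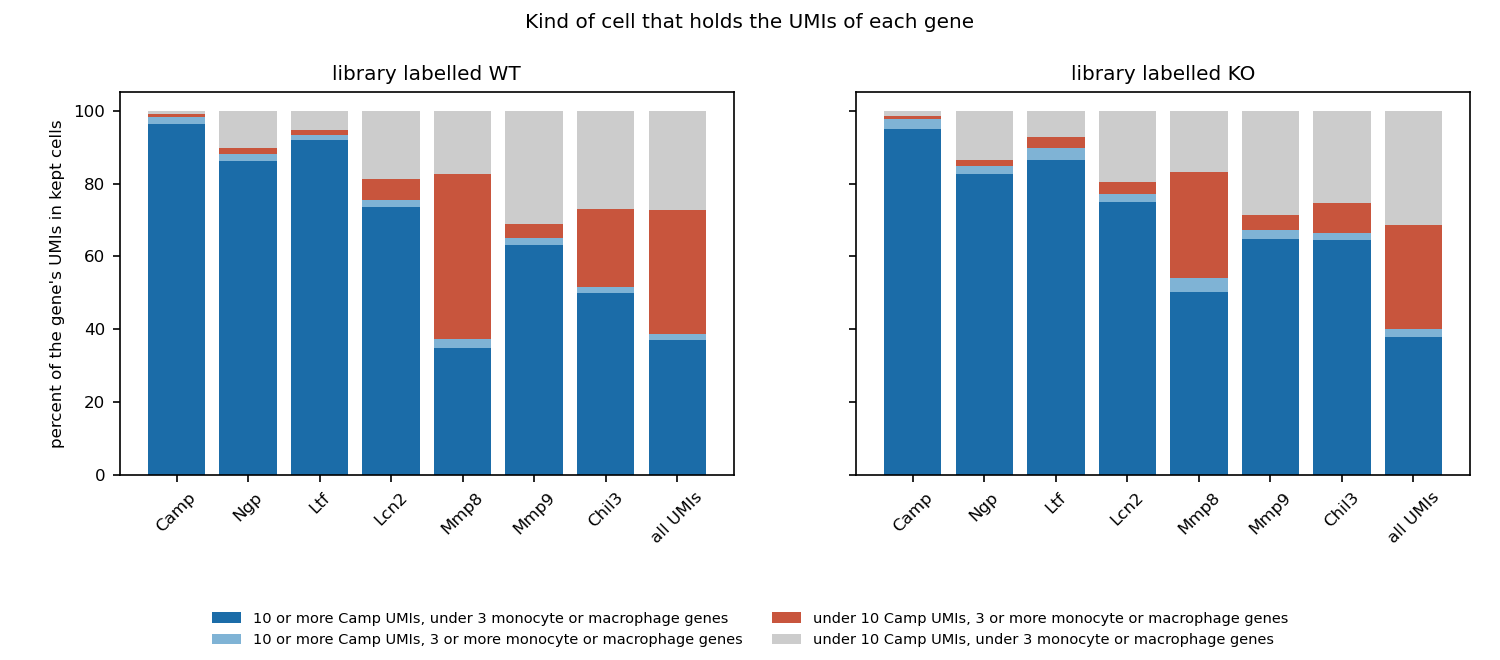
Percent of each gene's UMIs in kept cells that lay in 4 kinds of cell, told apart by Camp UMIs (10 or more, or fewer) and by monocyte or macrophage list genes (3 or more different ones, or fewer), for the library labelled WT (left) and KO (right); the last bar is the share of all UMIs. Ngp (86.1% and 82.5%) and Ltf (91.9% and 86.4%) lie mostly in Camp-rich cells without the markers, where Camp is placed by the choice of cells, while 45.4% of Mmp8 in WT lies in low-Camp cells that hold them.

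The cells the study left out were richer in these genes than the cells it kept. The cut is on detected genes, and UMIs of a few abundant genes add little to that number. The cut and the share of these genes are therefore not independent, and how much this adds was not tested. In cells under 500 genes the 7 genes took 14.2% of UMIs in WT and 14.6% in KO, a log2 ratio to kept cells of 1.05 (1.03 to 1.07) and 1.2 (1.19 to 1.21). Cells in which they took 20% or more of the UMIs made up 7.81% of kept and 19.7% of left-out WT cells, and 6.91% of kept and 29.8% of left-out KO cells. By gene, 6 of the 7 were higher by 1.5-fold or more in each library and 0 were lower. Over all genes with enough UMIs, 12.9% of 8319 were higher and 55.2% lower in WT, and 11.6% of 7417 were higher and 43.3% lower in KO. The median log2 ratio of the 7 was 1.97 in WT and 1.78 in KO, against -0.75 and -0.44 over all genes.

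Mmp8 led, at 757 CPM in left-out against 76.5 in kept WT cells, a log2 ratio of 3.31 (3.06 to 3.55), and at 549 against 34.3 in KO, 4.00 (3.77 to 4.23). Ltf followed, at 2443 against 288 CPM in WT (3.08) and 3474 against 324 in KO (3.42). Mmp9 stood at 834 against 102 in WT (3.03) and 362 against 42.9 in KO (3.08). Lcn2 (1.97 and 1.78), Ngp (1.49 and 1.56) and Camp (1.10 and 0.87) were raised less than these 3 rarer genes. Chil3 was the exception, lower in WT (-0.32) and near even in KO (0.09).

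Put as shares, the left-out cells held 1.88% of all UMIs of the library labelled WT but 14% of its Ltf, 15.9% of its Mmp8 and 13.5% of its Mmp9 UMIs. For the library labelled KO they held 7.75% of all UMIs, but 47.4% of Ltf, 57.3% of Mmp8 and 41.5% of Mmp9. Counting every deposited cell, the log2 ratio of Ltf between the libraries therefore went from 0.17 to 0.79, and its level from 288 to 328 CPM in WT and from 324 to 568 in KO.

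Left-out cells lay late on the axis, 175 of 203 (86.2%) in bins 9 and 10 in WT and 383 of 695 (55.1%) in KO. Their gene lists moved the same way. The 6 primary granule genes were all lower in them in both libraries, the mitotic list stood at 112 against 1190 CPM in WT and 141 against 1422 in KO, and 13 (WT) and 12 (KO) of 14 late granulocyte genes were higher and 1 lower by 1.5-fold or more. Of 19 other specific and gelatinase granule genes 15 and 14 were higher and 0 lower. These list counts had no minimum of UMIs, and some of the genes rested on few. Pglyrp1 stood at 6347 against 2413 CPM in WT and Cd177, a neutrophil surface glycoprotein, at 1053 against 487. Among the 6 most abundant, Hp (5235 against 3639), Cyba (4643 against 3119), Fcnb (789 against 845) and Slpi (4527 against 4969) did not differ by 1.5-fold in WT, nor did they in KO.

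**Figure D4:**
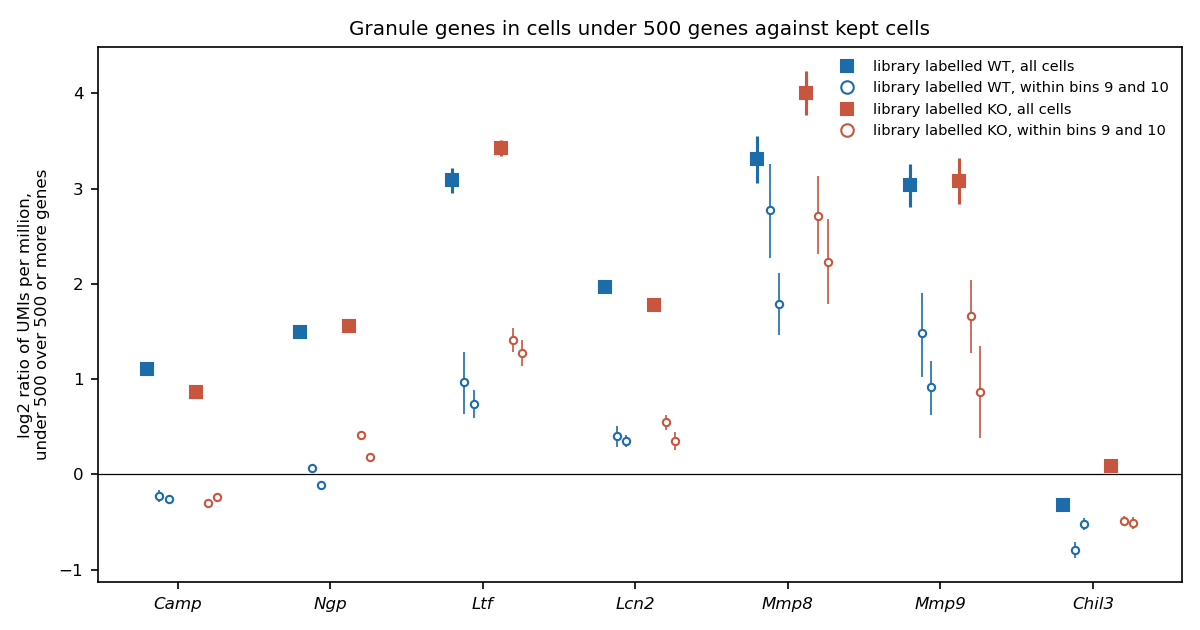
Log2 ratio of CPM, cells under 500 genes over cells with 500 or more, for each gene in the library labelled WT (blue) and KO (red): squares for all cells, open circles for cells within bins 9 and 10 of the axis (left and right), with 95% counting intervals. Mmp8, Ltf, Mmp9 and Lcn2 stay above 0 within a bin, while Camp and Chil3 lie below 0.

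Within the same bin the 7 genes parted. Mmp8 was still higher in left-out cells, at 840 against 123 CPM in bin 9 (log2 ratio 2.77, 2.27 to 3.26) and 844 against 245 in bin 10 (1.79, 1.46 to 2.11) of WT, and by 2.71 and 2.23 in KO. Ltf was higher by 0.96 and 0.74 in WT and by 1.41 and 1.28 in KO, Mmp9 by 1.48 and 0.91 in WT and 1.66 and 0.87 in KO, and Lcn2 by 0.40 and 0.35 in WT and 0.54 and 0.35 in KO. Camp was lower there, by -0.23 and -0.26 in WT and -0.30 and -0.24 in KO. Chil3 was lower too, by -0.80 and -0.52 in WT and -0.49 and -0.51 in KO. Ngp was near even in WT, at 0.07 and -0.11, and higher in KO, at 0.41 and 0.18. Within these bins Camp was thus not raised in left-out cells, Ngp was raised in KO, and Mmp8, Ltf, Mmp9 and Lcn2 were raised in both libraries. The axis is a ratio of raw UMI counts plus 1 and so depends on depth. Left-out cells had a median of 1063 UMIs in WT and 907 in KO. Kept cells of bins 9 and 10 had medians of 2110 and 1962 in WT and 1750 and 1759 in KO. The bins may therefore not match the 2 kinds of cell in maturation, and a common depth was not tested.

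Other cell types did not fill these cells evenly. In left-out KO cells the erythroid list summed to 5024 CPM, against 8.96 in left-out WT cells, but 1 cell of the 695 held over 5% of its UMIs in that list, and without it the count of genes higher by 1.5-fold stayed at 6 of 7. The monocyte list stood at 273 CPM in left-out WT cells and 917 in left-out KO cells, and the macrophage list at 663 and 917. Their part in the results was not tested.

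Co-detection asked whether a cell with a UMI of 1 gene tends to hold the others. It was counted at 1000 UMIs per kept cell and set against the number of cells expected if the genes were independent. Of 21 pairs, 20 in WT and 21 in KO were found together more often than expected, with a median ratio of 1.18 and 1.19. The excess was 1.5-fold or more in 6 pairs in WT and 5 in KO. Ltf and Mmp9 met in 155 WT cells against 43.1 expected (3.59-fold) and in 60 KO cells against 18 (3.33-fold). Mmp8 and Mmp9 met in 77 against 26.1 in WT (2.96-fold) and in 18 against 3.28 in KO (5.49-fold), and Ltf and Mmp8 in 64 against 27.2 (2.35-fold) and 31 against 10.3 (3.02-fold). These 3 pairs are of the rarest genes, and the ratio of a pair cannot exceed the inverse of the share of cells with the commoner gene, so ratios are not ranked between rare and common genes. Camp and Mmp8 in WT were the exception of the 21 pairs, with 135 cells against 147 expected (0.917-fold).

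**Figure D5:**
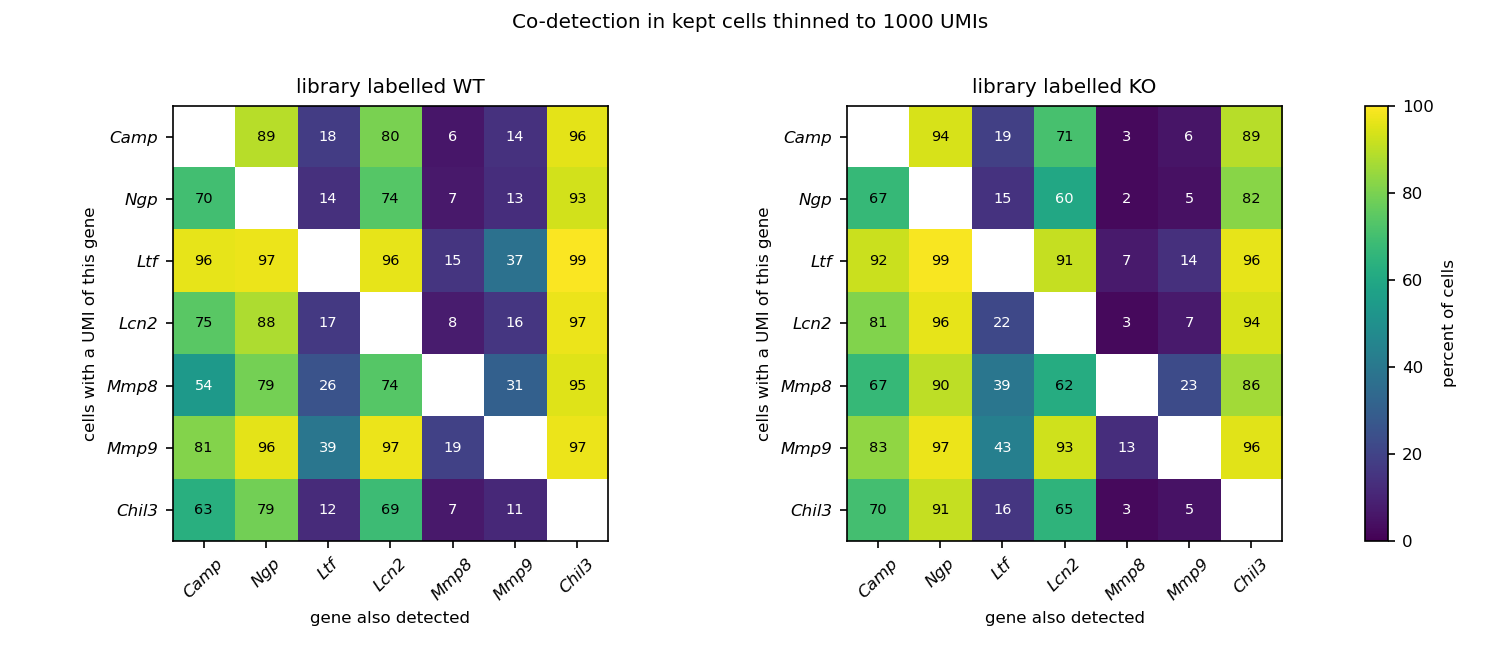
Percent of kept cells with a UMI of the row gene that also held a UMI of the column gene, each cell thinned to 1000 UMIs, in the library labelled WT (left) and KO (right). The Ltf and Mmp9 rows are high in the Camp, Ngp, Lcn2 and Chil3 columns, while the Ltf, Mmp8 and Mmp9 columns lie below the other columns in every row. Cells with the rarer genes mostly hold the commoner ones, which are also common over all cells. Of the rarer genes, the Mmp8 row is the lowest for Camp.

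In detection, cells with Ltf mostly held the commoner genes. Of WT cells with Ltf, 96.1% also held Camp, 97.1% Ngp, 96.4% Lcn2 and 99.3% Chil3, and in KO the shares were 92%, 99.1%, 91.3% and 96.3%. Over all cells they were 58.9%, 75.4%, 63.2% and 89.2% in WT, and 62.6%, 88%, 54.7% and 79.4% in KO. The high base shares, above all of Chil3 and of Ngp in KO, and free RNA thus enter these values. In return 17.8% of WT cells and 19.1% of KO cells with Camp held Ltf, against 10.9% and 13% of all cells. Mmp8 was near the base share, with Camp in 54.0% of WT and 67.1% of KO cells that held it, against 58.9% and 62.6% of all cells.

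Sorted by their summed Camp and Ngp UMIs out of 1000, cells gained the other genes in steps. Ltf was detected in 0.803% of WT cells with 0 to 4 such UMIs (1869 cells), 5.34% with 5 to 29, 11.5% with 30 to 69, 18.4% with 70 to under 110 and 34.3% with 110 or more (746 cells). In KO the same classes gave 1.97%, 3.70%, 10.0%, 22.1% and 41.4%. Lcn2 went from 33.2% to 98.4% in WT and from 19.5% to 93.9% in KO. Chil3 was already in 78.8% and 57.6% of the lowest class and reached 100% and 98.9%. Mmp9 levelled off in WT, at 2.14% in the lowest class, 19.7% with 30 to 69 and 20.5% in the highest, and reached 8.89% in the highest class of KO. Mmp8 had no gradient, at 6.74% in the lowest and 5.63% in the highest class of WT and at 2.11% and 3.72% in KO.

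Inside the bins of the axis the excess was smaller. When the expected number was computed inside each bin and summed, the median log2 ratio went from 0.24 to 0.02 in WT and from 0.25 to 0.03 in KO. In late bins nearly all cells held the common genes, for example Lcn2 in 99.8% and Chil3 in 99.4% of WT cells of bin 10 before thinning. The ratio of a pair with such a gene cannot rise far above even there. How much of the pairing followed place on the axis can therefore not be read from this median. The pairs among Ltf, Mmp8 and Mmp9 kept an excess. Mmp8 and Mmp9 met 1.94-fold in WT and 2.95-fold in KO, Ltf and Mmp8 1.46-fold and 1.52-fold, and Ltf and Mmp9 1.23-fold and 1.19-fold. Camp and Mmp8 met less often than expected inside bins, at 0.787-fold in WT (131 against 166 cells) and 0.916-fold in KO (50 against 54.6). At 500 UMIs per cell, which every cell reached, 5 or more of the 7 genes were found in 11.3% of kept and 55.2% of left-out WT cells, and in 8.21% of kept and 48.1% of left-out KO cells.

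Camp and Ngp did not always go together in single cells. Of 1696 WT cells with 30 or more Ngp UMIs, 175 (10.3%, 8.91% to 11.9%) held 2 or fewer Camp UMIs, and of 1570 KO cells 176 (11.2%, 9.69% to 12.9%) did. Under the same cuts the reverse was rarer, with 9 of 1313 WT cells (0.686%) and 0 of 1080 KO cells, the latter allowing up to 0.341%. The directions are not on a like footing, since Ngp was the more abundant gene. In the low-Camp monocyte and macrophage marker cells Ngp stood at 1093 CPM in WT and 1887 in KO. Camp, kept low there by the choice of cells, stood at 287 and 362. The part of abundance and free RNA in this difference was not tested. The share of Ngp-rich cells without Camp went down along the axis, from 18.2% in bin 5 to 5.23% in bin 10 of WT and from 30.5% to 1.99% in KO. In WT the Ngp-rich cells with 2 or fewer Camp UMIs stood at 323 CPM of Mmp9, 90.1 of Ltf and 6448 of Lcn2, and those with 10 or more Camp UMIs at 178, 693 and 6790. Their median depth was 2097 and 2579 UMIs, and the mitotic list summed to 792 and 1755 CPM. In KO the Mmp9 values were 93.3 and 75.2, Ltf 143 and 764, and the mitotic list 1760 and 1966.

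The cells that carried most of each gene differed in dividing state. Weighted by its UMIs, the cells that held Camp had a mitotic list level of 1632 CPM in WT and 1817 in KO, above the 1190 and 1422 of all UMIs. For Ltf the same weighted level was 607 and 970, for Mmp9 479 and 831, and for Mmp8 299 and 631. Ngp lay between, at 1316 and 1585, and Lcn2 at 939 and 1371. Chil3 stood at 1425 and 1908. Camp, Ngp and Chil3 thus lay in cells with more, and Ltf, Lcn2, Mmp8 and Mmp9 in cells with less, of the mitotic genes than the average UMI.

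Of 12 clusters made without the 7 genes, the one marked by S phase genes held the highest Camp level in both libraries, 47867 CPM in WT and 37064 in KO. Clusters 3 and 10 were both marked by late granulocyte genes, and cluster 3 held the highest levels of Ngp (84326 and 112694 CPM), Ltf (1971 and 3435) and Lcn2 (13667 and 8320) in both libraries. Mmp9 was highest in cluster 3 in WT (632) and in cluster 10 in KO (339). Mmp8 was highest in cluster 3 in KO (291), with cluster 4 next (141). In WT it was highest in cluster 4 (468), an unnamed cluster whose leading genes, Ccl6 and Apoe, were looked up after its values were seen. Across the 12 clusters in each of the 2 libraries, Camp and Ngp had the most similar profile of log2(CPM + 10), with a Pearson correlation of 0.99 over 24 points. Camp and Mmp8 were the least alike, at 0.04. Both libraries enter each correlation, and the points share libraries and depth, so these values describe likeness only. Of 2737 genes in at least 10% of kept cells, the nearest to Camp were S100a9 (0.99), S100a8 (0.99) and Mapk13 (0.97), and to Ngp S100a8 (0.98), S100a9 (0.97) and Actn1 (0.97), S100a8 and S100a9 being the subunits of calprotectin. The nearest to Ltf were AA467197 (0.97), Arrb2 (0.92) and Dhrs7 (0.90), and to Mmp9 Dhrs7 (0.95), AA467197 (0.92) and C5ar1 (0.92). Lcn2 was nearest to Lrg1 (0.97), Anxa11 (0.95) and S100a9 (0.95). Mmp8 was nearest to S100a6 (0.93), Lyz2 (0.88) and Lgals3 (0.87), the last 2 being lysozyme and galectin 3. S100a6 was among the leading genes of cluster 3 and Lyz2 among those of cluster 4. Chil3 was nearest to Clec4a2 (0.90), Actr3 (0.89) and Ltb4r1 (0.88).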

How the data were processed

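Single-cell 3′ libraries (10x Genomics), 1 per genotype, were analysed from the matrix of UMI counts deposited by the authors. The authors ran Cell Ranger (1.3.1 per the submitters' processing notes, which also name build mm10; the study's methods name a later version) and did not normalize the counts. Both libraries lie in 1 matrix; the barcode suffix was tied to genotype by code published with the study, not by the labels. The limit of 500 genes is that of the study and left slightly more cells here than the study states.

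Levels are UMIs summed over cells per 1000000 UMIs, with exact Poisson intervals; shares have exact Clopper-Pearson intervals and ratios exact conditional binomial intervals, all at 95% and covering counting error only. No test between libraries was made. A ratio was called at 1.5-fold. The shares over all genes took genes with 50 or more UMIs in both groups together. Counts within the gene lists took every gene with a ratio, some on few UMIs, so the list counts and those shares rest on unlike filters. The 7 genes, all comparison lists and tests were chosen with earlier results of these data known. Beyond the 7 genes, single genes were named by rule: at most 6 each, by UMIs, of the primary granule, other granule and transcription factor lists, and the 3 genes most like each of the 7 in log2(CPM + 10). The axis used log2 of late granulocyte UMIs + 1 over primary granule UMIs + 1, in cells with 5 or more such UMIs. Clusters came from k-means on 20 principal components of 785 variable genes. Doublets were not removed: Scrublet marked 5 cells (0.0602%) by its own threshold, which is taken as a failed call, and leaving out the 5% with the highest score was an alternative. Code was tested on simulated data. Python 3.11.15, numpy 2.4.6, scipy 1.17.1, scikit-learn 1.9.0, scanpy 1.11.5 and matplotlib 3.10.9 were used. Promoters are RefSeq entries on GRCm38.p6.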

Additional observations from a re-analysis of the deposited data

How the results depend on the processing

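No paired analysis was possible because each genotype had a single library. The log2 ratio of the 7 genes summed, KO over WT, was -0.11 and stayed below 0: -0.34 in cells with 1000 or more genes, -0.0058 over every deposited cell, -0.21 as a mean over cells of scaled counts, -0.13 with the 7 genes, S100a8 and S100a9 left out of the total, -0.16 at 1000 UMIs per cell, -0.27 in cells matched on total UMIs, -0.14 without the 10 richest cells of each gene, -0.14 without the highest Scrublet scores and -0.37 as the mean within bins. The Ltf ratio reversed to -0.11, -0.053 and -0.47 under the scaled mean, the common depth and the matched cells; its mean over bins 7 to 10, a summary chosen after seeing the data, did not reverse under 5 alternatives. The number of genes lower by 1.5-fold in KO lay between 2 and 4.

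For left-out over kept cells the summed log2 ratio was 1.05 in WT and 1.2 in KO. It was 1.23 and 1.49 with the limit at 400 genes, 0.87 and 1.0 at 600, 0.86 and 1.05 as a scaled mean, 1.34 and 1.40 with the reduced total, and 0.90 and 1.15 without the 10 richest cells; 6 genes were higher in each. Leaving out cells under 500 UMIs was not run, since 0 cells were that shallow.

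The order value, centroid of Mmp8 and Mmp9 minus that of Camp, Ngp and Ltf, was -0.42 in WT and moved to -0.29 at 1000 UMIs per cell. It reversed to 0.020 with S100a8 and S100a9 left off the axis, and to 0.58 without the monocyte and macrophage marker cells. In KO it was -0.05, with an interval that included 0, and moved to 0.26 and 0.37 under these last changes. Without those cells the place of Mmp8 in the order went from 2 to 6 in WT and from 3 to 6 in KO, and that of Mmp9 from 6 to 5 in both.

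The median log2 co-detection ratio was 0.24 in WT and 0.25 in KO. It was 0.067 and 0.17 at own depth, 0.46 and 0.42 at 500 UMIs, 0.61 and 0.47 with 2 or more UMIs, 0.023 and 0.027 within bins, and 0.64 and 0.81 for Camp, Ngp, Lcn2 and Chil3 at 10 or more UMIs, added after seeing the data. Depth limits Mmp8 and Mmp9 most, which rest on 272 and 340 UMIs in kept KO cells.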
